A study of Mus musculus with 2 samples.

Results

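Metalloproteinases and their inhibitors were examined in mouse T helper 2 cultures (Th2, the interleukin-4 producing kind of CD4 T cell) from Ecm1 knockout mice and from wild-type mice. Members were the genes whose platform symbol names a matrix metalloproteinase (MMP, genes Mmp), a tissue inhibitor of metalloproteinases (TIMP), an ADAM or an ADAMTS. They numbered 65 of 18193 named genes, with 116 of 45101 probe sets, and comprised 18 Mmp, 4 Timp, 28 Adam and 15 Adamts genes. Both groups were female C57BL/6 mice of 6 weeks, per the labels' protocols. The Th2 KO group lacked Ecm1, the gene of a glycoprotein that cells secrete into the matrix, and the Th2 WT group carried it. CD4 cells were isolated from spleen with an anti-CD4 antibody on magnetic columns. Either group was then kept for 4 days on bound anti-CD3 at 3 µg/ml with anti-CD28 at 2 µg/ml in solution. IL-4 was added, together with antibodies to IFN-γ and to IL-12 at 10 µg/ml each. The labels do not say which part of Ecm1 was deleted, nor how many animals each array stands for.

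MMPs, ADAMTSs and many ADAMs share a zinc-dependent catalytic domain. MMPs are made as inactive precursors and, once activated, cut collagens, elastin, other matrix proteins and cytokines. ADAMs sit in the cell membrane and release the outer parts of surface proteins, such as tumour necrosis factor, Notch and adhesion molecules, while ADAMTSs are secreted and act on proteoglycans, procollagens and microfibrils. TIMPs bind the active site of these enzymes and block it. The human ECM1 protein is known to bind MMP9 and to lower its activity. T cells use membrane ADAMs to shed activation molecules, whereas many secreted MMPs are best known from macrophages, neutrophils and stromal cells.

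Each group had 1 array, so there is no replicate error and no test between groups, and every difference describes these 2 arrays. The values are linear probe-set signals in arbitrary units. A signal below the median of its array (65.5 in KO, 69.2 in WT) was taken as at the floor, and a gene that reaches the floor on 1 array or both is called expressed. Differences are log2 KO minus WT, centred on the median (-0.10) of all probe sets that reach the floor in KO and in WT. The brightest probe set stands for its gene, and where 1 of the 2 arrays is below the floor the difference is a bound, computed against that floor. The only internal measure of error was how far probe sets of a shared gene differed, a technical SD of 0.36 on the log2 scale over 4657 genes. It does not cover variation between animals, cultures or arrays.

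The labels were checked first. Ecm1 read 19.3 in KO and 29114.7 in WT, a log2 difference of -8.69 or lower. T cell genes marked both arrays, with Cd3e at 3382.8 in KO and 6210.6 in WT, and so did the Th2 genes Gata3 (5958.6 in KO, 7423.4 in WT) and Il4 (923.1 in KO, 1233.0 in WT). Cd4, the marker used to isolate the cells, read 932.2 in KO and 3022.3 in WT. Genes of B and plasma cells were also strong, such as Cd79b (10153.2 in KO, 4493.9 in WT) and Jchain (26366 in KO, 13593.4 in WT). These checks thus do not show a culture of T cells alone. The sample descriptions name liver, but 0 of 5 hepatocyte genes reached the floor on either array. The Y-linked Eif2s3y read 2214.4 in KO and 25.0 in WT although the mice are described as female, and Xist, which is made from the inactive X chromosome, had 44.2%, 38.7% and 48.0% of the WT signal on the KO array at its 3 probe sets. Since the arrays differ in these sex-linked genes, sex and genotype cannot be told apart in any KO minus WT difference.

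Of the 65 members, 22 were expressed (33.8%), against 61.9% of all named genes. Among them 16 reached the floor on both arrays, 3 on the KO array only and 3 on the WT array only. Adam8, Adam9, Adam10, Adam12, Adam15, Adam17, Adam19, Adam28 and Adam33 were taken as 1 group of proteases. Of these, 8 of 9 were expressed, with Adam28 just above the floor (66.8 in KO). Of the other ADAMs, mostly genes of testis and epididymis, 1 of 16 was expressed. Both groups were set with earlier results of these data known. Of the 16 members on both arrays, 2 were higher in KO by 2-fold or more (12.5%, against 7.15% of all such genes), 3 were lower by as much (18.8%, against 4.45%) and 11 within 2-fold. The 2 higher genes were Mmp12 and Mmp8, and the 3 lower genes were Timp2, Adamts10 and Adamts6. Of the 6 members on 1 array only, 1 (Mmp13) was at least 2-fold higher by its bound, where 9.37% of all such genes were, and 0 were at least 2-fold lower, where 4.46% were. The median difference over the 16 was 0.20, against 0.04 over all genes measured on both. With so few members, 1 gene moves each of these shares by several percentage points.

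**Figure D1:**
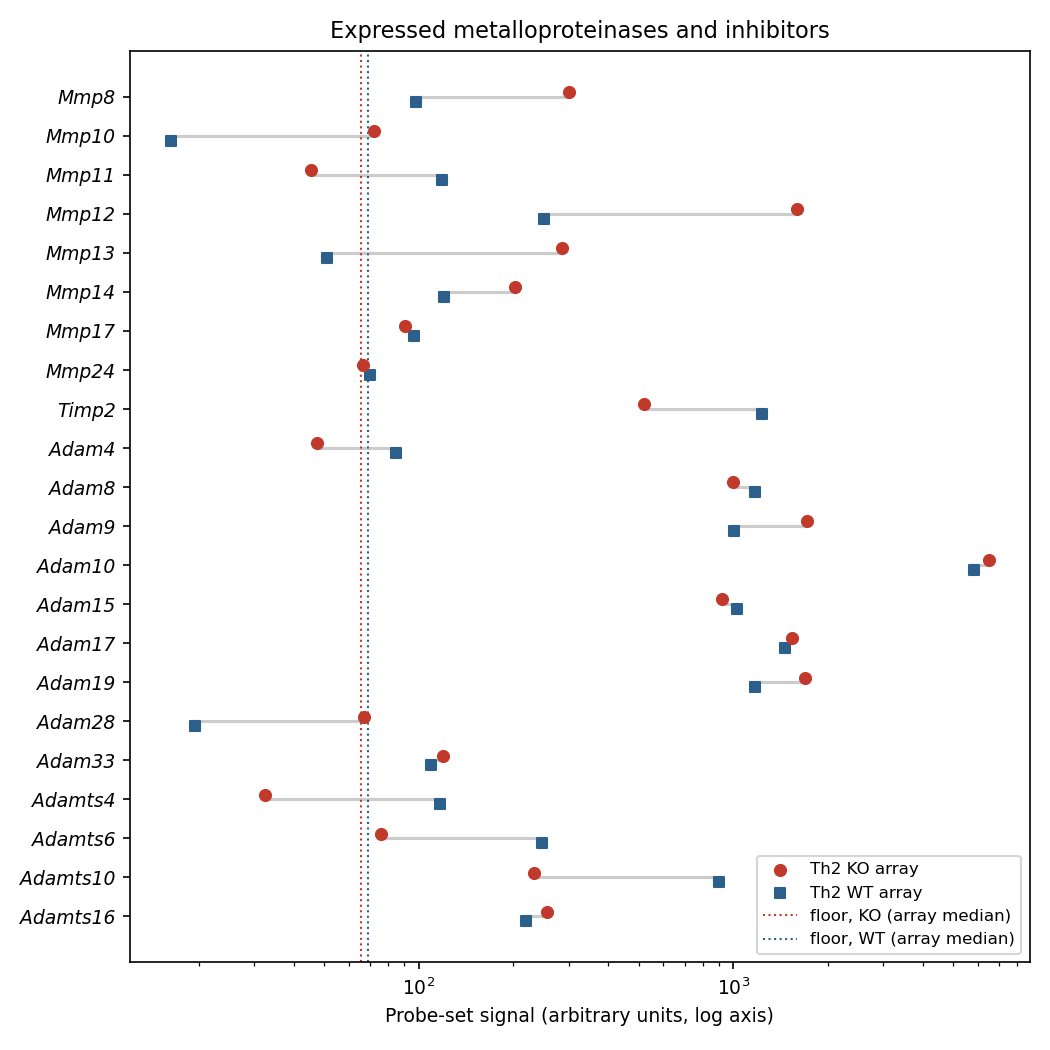
Probe-set signal (arbitrary units, log axis) of the 22 expressed members on the Th2 KO array (circles) and the Th2 WT array (squares), with dotted lines at the floor of each array. The widest gap with both points above the floor is that of Mmp12, at 1591.0 in KO and 251.0 in WT, while Adam10 reads 6496.7 in KO and 5818.3 in WT.

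Of 18 Mmp genes 8 were expressed, and 3 of them, Mmp12, Mmp8 and, by its bound, Mmp13, were higher in KO by 2-fold or more. Mmp12, macrophage elastase, read 1591.0 in KO and 251.0 in WT, a log2 difference of 2.77 or 6.81-fold. Mmp13, an interstitial collagenase, read 285.0 in KO and 51.0 in WT, where it lay below the floor, so it was at least 4.42-fold higher (log2 bound 2.15). Mmp8, the collagenase of neutrophil granules, read 299.6 in KO and 97.9 in WT, a log2 difference of 1.72 or 3.29-fold. Each of these 3 genes has a single probe set, so no other probe set can be set beside it. Mmp10, stromelysin-2, read 72.2 in KO, just above the floor, and 16.3 in WT, which leaves a log2 bound of 0.16. The results for Mmp8 and Mmp13 depend on the floor. With the floor at the 70th percentile of each array, the bounds were 0.03 for Mmp8 and -0.041 for Mmp13, while Mmp12 kept a bound of 2.44.

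In the RefSeq assembly GRCm38.p6, Mmp12, Mmp13, Mmp8 and Mmp10 lie in a group of 10 Mmp genes on chromosome 9 with 0 other protein-coding genes between them. In order along the chromosome these are Mmp13, Mmp12, Mmp1b, Mmp3, Mmp1a, Mmp10, Mmp8, Mmp27, Mmp20 and Mmp7. Of the 9 with a probe set, 4 were expressed and 5 were below the floor on both arrays, and Mmp27 was not analysed here. The genes that were expressed were not all next to each other, since Mmp1b, Mmp3 and Mmp1a lie between Mmp12 and Mmp10. Mmp3, stromelysin-1, read 25.5 in KO and 31.9 in WT, and Mmp7, matrilysin, 11.9 in KO and 21.2 in WT.

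**Figure D2:**
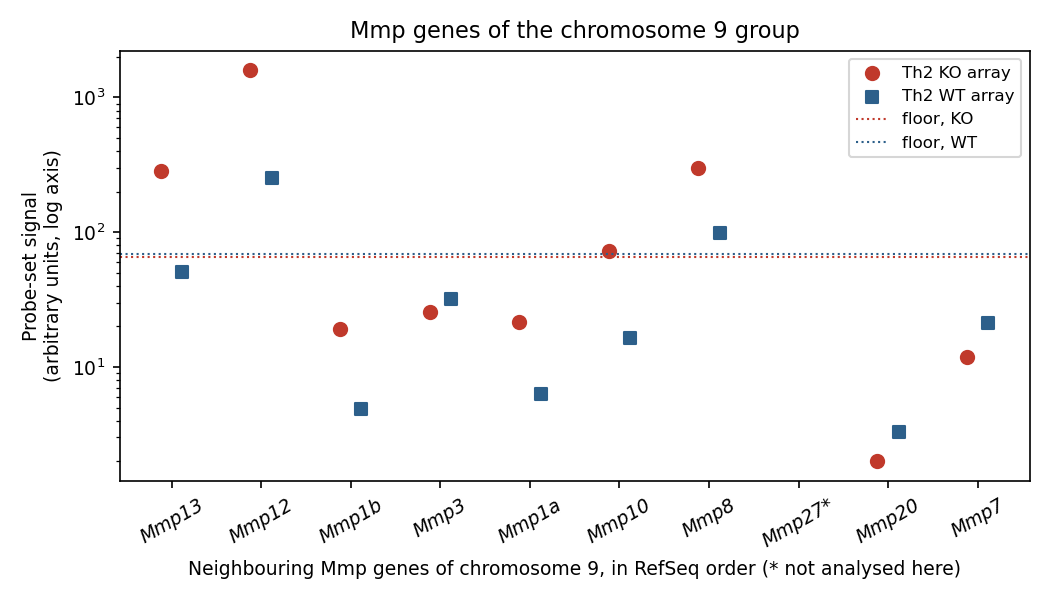
Probe-set signal (arbitrary units, log axis) of the Mmp genes of the chromosome 9 group in RefSeq order, KO circles left of WT squares, with dotted lines at the floor of each array. Mmp13, Mmp12 and Mmp8 stand clear of the floor in KO, and Mmp10 reads 72.2 in KO, just over it.

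Promoters of this group are shown because it holds the members with the highest KO minus WT differences. RefSeq promoters of GRCm38.p6 run from 250 bases before to 50 after a transcript start, and 37 of the 65 members have one. They were searched on both strands for the AP-1 site TGANTCA, which FOS and JUN proteins bind, for the TATA box TATAAA and for the GC box GGGCGG. An AP-1 site was in at least 1 promoter of 8 of the 10 genes of the group, against 8.97% of 27025 genes, and a TATA box was in 9 of the 10, against 15.7%. These counts take a match on either strand and anywhere in the window. The 10 genes are neighbours of 1 family and cannot be taken as independent of each other, so the shares describe this group only. Both genes with the highest differences and genes below the floor on both arrays carried the AP-1 letters, which were absent from the Mmp8 and Mmp27 promoters. A match is a run of letters in the window and does not show that a factor binds there. The 120 bases before the start are printed 5′ to 3′ for the 4 expressed genes and for Mmp3, a neighbour below the floor on both arrays, with whole matches in capitals. Of the 2 starts of Mmp12, the one with a match is shown, and the other had none. No 2 matches overlapped in these promoters.
Mmp12, chr9:7347254-7347373, + strand: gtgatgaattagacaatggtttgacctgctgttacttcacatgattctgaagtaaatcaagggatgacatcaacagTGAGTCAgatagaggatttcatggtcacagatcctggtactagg
Mmp13, chr9:7272394-7272513, + strand: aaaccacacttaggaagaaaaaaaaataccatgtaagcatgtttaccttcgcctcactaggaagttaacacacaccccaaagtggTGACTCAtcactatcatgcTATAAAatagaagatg
Mmp10, chr9:7502222-7502341, + strand: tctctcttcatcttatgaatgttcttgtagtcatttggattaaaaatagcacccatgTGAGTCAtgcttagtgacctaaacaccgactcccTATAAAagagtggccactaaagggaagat
Mmp8, chr9:7558309-7558428, + strand: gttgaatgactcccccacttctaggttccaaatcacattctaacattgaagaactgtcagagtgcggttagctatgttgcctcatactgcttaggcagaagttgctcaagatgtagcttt
Mmp3, chr9:7445702-7445821, + strand: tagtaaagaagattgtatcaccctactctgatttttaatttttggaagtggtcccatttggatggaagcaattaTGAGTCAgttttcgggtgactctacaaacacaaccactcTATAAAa

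The AP-1 match began 44 bases before the start in Mmp12, 35 in Mmp13, 63 in Mmp10 and 46 in Mmp3. A TATA box followed it 16 bases before the start in Mmp13, 29 in Mmp10 and 7 in Mmp3. The TATA match of Mmp12 lay after the start and that of Mmp8 reached across it on the opposite strand, so neither is in capitals. Neither match is a TATA box ahead of the start. None of the 10 genes had a GC box, which 38.2% of all genes had. The other Mmp genes with a promoter in the table, Mmp11, Mmp14, Mmp23 and Mmp24, showed the reverse, with a GC box in 4 of 4 and neither an AP-1 site nor a TATA box.

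Of 5 membrane-bound MMPs 3 were measured on both arrays, all within 2-fold, and Mmp16 and Mmp23 were below the floor on both. Mmp14, which activates the MMP2 precursor at the cell surface with TIMP2 as a bridge, read 201.6 in KO and 120.4 in WT, a log2 difference of 0.85. Its other 2 probe sets were below the floor on both arrays. Mmp17, a lipid-anchored MMP, read 90.6 in KO and 96.4 in WT (0.01 after centring), and Mmp24, best known from neurons, read 66.6 in KO and 70 in WT (0.03). Mmp24 stood just above the floor on both arrays, and its other 2 probe sets were below it (61.3 and 24.1 in KO, 62.8 and 25.1 in WT). The signs of Mmp17 and Mmp24 turned negative without centring (-0.09 and -0.07) and in other alternatives. Mmp11, stromelysin-3, went the other way from the chromosome 9 genes, with 45.5 in KO, below the floor, and 118.4 in WT, a log2 bound of -0.75. The gelatinases were below the floor on both arrays. Mmp9 read 42.9 in KO and 7.5 in WT at its brighter probe set, and Mmp2 read 27.1 in KO and 10.0 in WT, so neither has a fold.

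Timp2 was the only TIMP gene expressed, and it was lower in KO. Its brightest probe set read 518.9 in KO and 1238.3 in WT, a log2 difference of -1.15, or 2.22-fold lower. The other 2 probe sets measured on both arrays read 166.6 in KO and 419.4 in WT (-1.23), and 98.4 in KO and 440.9 in WT (-2.06). All 3 thus ran the same way and were past 2-fold. A further probe set was above the floor in WT only (10.5 in KO, 75.1 in WT, a bound of -0.09), and 2 were below it on both arrays. Averaging all 6 probe sets took the KO value below the floor and left a bound of -0.10. Timp1, the inducible family member, read 53.9 in KO and 39.1 in WT and was the member nearest below the floor. Timp3, which stays bound to the matrix, read 30.3 in KO and 11.6 in WT, and Timp4 12.5 in KO and 30.0 in WT.

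The promoter of Timp2, the only TIMP gene expressed, is shown with its GC box in capitals, 37 bases before the start. It held neither an AP-1 site nor a TATA box. A GC box was also in 5 of 5 expressed ADAM genes with a promoter. Of these, Adam10, Adam17 and Adam19 lay above 0 and Adam8 and Adam15 below it, and Adam19 had an AP-1 site too. Timp1 and Timp3, below the floor on both arrays, also had a GC box.
Timp2, chr11:118355412-118355531, - strand: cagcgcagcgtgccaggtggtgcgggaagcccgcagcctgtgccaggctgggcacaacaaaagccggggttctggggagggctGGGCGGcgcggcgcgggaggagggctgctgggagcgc

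Of 28 Adam genes 9 were expressed, 7 of them on both arrays, with a median difference of 0.22. Adam10, which cleaves Notch and many other surface proteins, read 6496.7 in KO and 5818.3 in WT (log2 difference 0.26), and its other measured probe set, at 136.7 in KO and 91.7 in WT, gave 0.68. Adam17, the convertase of tumour necrosis factor, read 1542.7 in KO and 1457.4 in WT (0.19), and its other 2 probe sets gave 0.34 and -0.17. Adam8, a leukocyte ADAM, read 999.9 in KO and 1169.8 in WT (-0.12), and Adam15 read 921.3 in KO and 1028.4 in WT (-0.06, with 0.37 in its other measured probe set). Apart from that Adam10 probe set, these differences were smaller than or close to the technical SD of 0.36, and none of the 7 ADAM genes on both arrays was past 2-fold.

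Adam9 and Adam19 were the ADAM genes furthest from 0. Adam9, a widely expressed sheddase, read 1710.3 in KO and 1008.9 in WT, a log2 difference of 0.86 or 1.82-fold. Adam19, meltrin beta, read 1694.2 in KO and 1170.7 in WT (0.64), and its other probe set gave 0.76. Over the alternative scalings, floors and summaries, Adam9 ran between 0.76 and 0.86 and Adam19 between 0.53 and 0.70, so neither changed sign or reached 2-fold. Adam33 read 119.0 in KO and 109.4 in WT (0.22). Adam28, known from lymphocytes in humans, was just above the floor in KO (66.8) and below it in WT (19.5), a bound of 0.05. The other probe set was below the floor on both arrays for Adam33 (2.5 in KO, 2.1 in WT) and for Adam28 (23.7 in KO, 31.6 in WT). Adam4 was above the floor in WT only, with 47.6 in KO and 84.8 in WT (-0.27 as a bound), and Adam12, meltrin alpha, was below it on both.

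Of 15 ADAMTS genes 4 were expressed, and the 2 past 2-fold were lower in KO. Adamts10, linked in humans to fibrillin microfibrils and Weill-Marchesani syndrome, read 232.1 in KO and 898.5 in WT, a log2 difference of -1.85 or 3.6-fold lower. Its other probe set read 94.0 in KO and 75.1 in WT and went the other way (0.43), so the probe sets of this gene disagree. Adamts6 read 75.8 in KO, near the floor, and 245.9 in WT (-1.59), while its other probe set, near the floor on both arrays, gave -0.03. Averaged over their probe sets, Adamts10 was at -0.71 and Adamts6 at -0.81, both within 2-fold. Adamts4, an aggrecanase, read 32.5 in KO, below the floor, and 116.8 in WT, a bound of -0.73. Adamts16 read 255.7 in KO and 218.9 in WT (0.33). The other probe set was below the floor on both arrays for Adamts4 (1.7 in KO, 4.6 in WT) and for Adamts16 (6.0 in KO, 7.2 in WT).

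**Figure D3:**
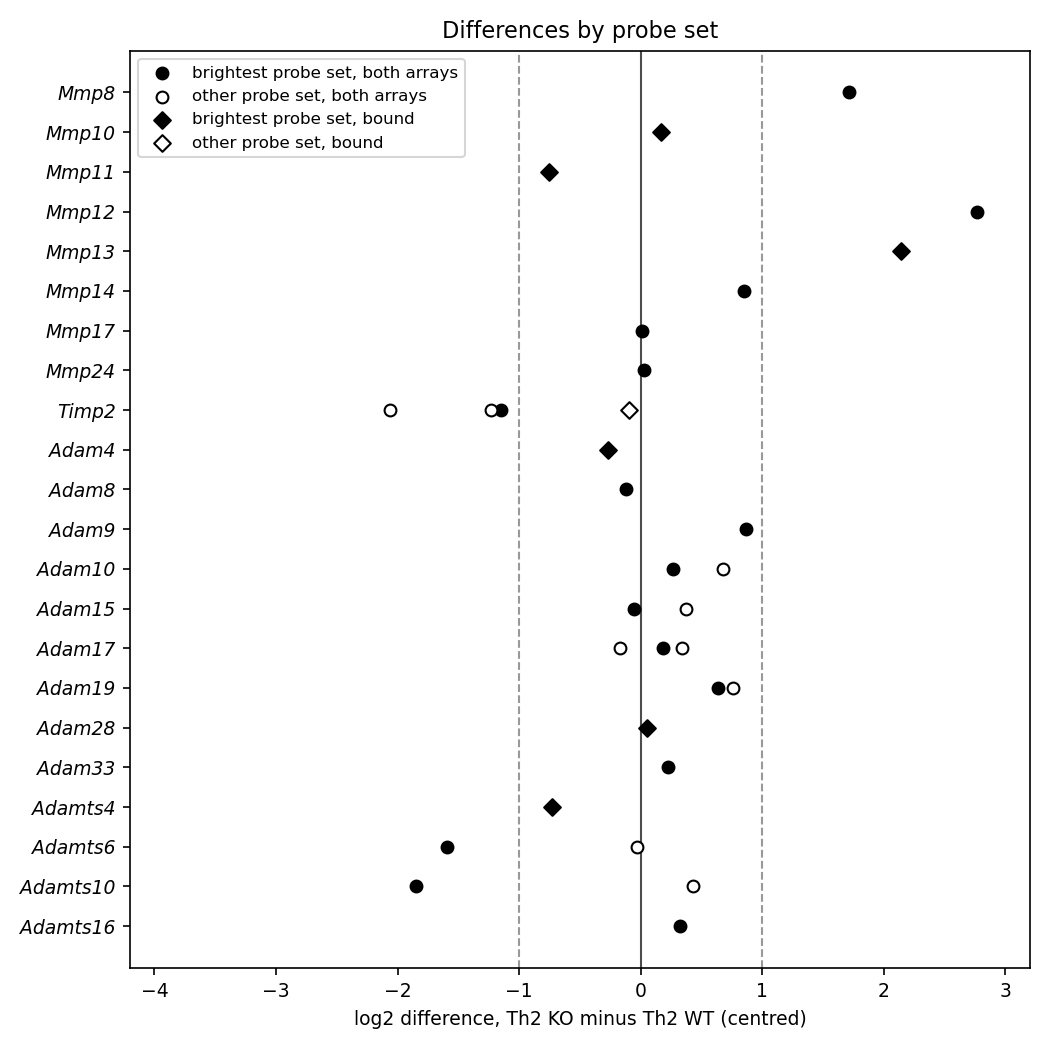
Log2 difference (KO minus WT, centred) of each probe set of the 22 expressed members that reached the floor on at least 1 array, with filled symbols for the brightest probe set of a gene, open symbols for the others, diamonds for bounds and dashed lines at 2-fold. The 3 probe sets of Timp2 on both arrays lie from -2.06 to -1.15, whereas those of Adamts10 lie at -1.85 and 0.43.

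The other 43 members were below the floor on both arrays, with signals from 1.0 to 53.9. They comprised 10 Mmp, 3 Timp, 19 Adam and 11 Adamts genes. Besides Timp1, those within 1.5-fold of the floor on at least 1 array were Adam1a (51.8 in KO, 4.6 in WT), Adam1b (39.9 in KO, 47.4 in WT), Adamts9 (48.2 in KO, 36.6 in WT) and Mmp23 (51.2 in KO, 20.7 in WT). An array gives no level for such genes, so a signal below the floor does not show that the transcript was absent.

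Genes that work with these enzymes were read from 6 companion lists, each with its median difference over genes on both arrays, which for all genes was 0.04. Over all genes, 61.9% were expressed, and of those on both arrays 7.15% were higher and 4.45% lower by 2-fold or more. Among other regulators of MMPs, 6 of 13 genes were expressed. Of the 4 on both arrays, 1 was higher and 1 lower by 2-fold or more, with a median of -0.19. Ecm1 was lower by its bound. Reck, a membrane-anchored MMP inhibitor, read 153.3 in KO and 391.5 in WT (-1.25), and thus lay on the same side as Timp2. Cd44, a hyaluronan receptor that docks MMPs at the cell surface and is itself shed, read 8636.9 in KO and 3780.9 in WT (1.29). Bsg, which induces MMPs in neighbouring cells, was at 0.46 and Sparc, a collagen-binding matrix protein, at -0.85.

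Partners of ADAM10 and ADAM17 lay mostly within 2-fold, with 8 of 10 expressed (80%, against 61.9% of all genes). Of these, 1 was higher by 2-fold or more (12.5%, against 7.15%) and 0 lower by as much, against 4.45% (median -0.26). Tspan15, a tetraspanin that escorts ADAM10, read 304.3 in KO and 116.9 in WT (1.48). The tetraspanins Tspan14 (-0.82) and Tspan5 (-0.57), which escort the same enzyme, were lower, and so was the ADAM17 cofactor Frmd8 (-0.76). Rhbdf2, an iRhom that carries ADAM17 to the cell surface, was at 0.03. Among the surface proteins that ADAM10 or ADAM17 shed, 16 of 19 were expressed. Of the 15 on both arrays, 4 were higher by 2-fold or more (26.7%, against 7.15% of all genes). By as much, 1 was lower (6.67%, against 4.45%), and the median was 0.03. The checkpoint receptor Lag3 was lowest (140.8 in KO, 626.7 in WT, -2.05), while Tnf (1.36), the decoy receptor Il1r2 (1.33) and Cd44 were highest. These are transcript levels and say nothing of shedding itself.

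In plasminogen activation, a protease cascade that can activate MMP precursors, 6 of 9 genes were expressed (66.7%, near the 61.9% of all genes). Of them, 0 were past 2-fold (median 0.15). The plasminogen receptor Anxa2 was at -0.66, the serpins Serpini1 and Serpinb2 at 0.56 and 0.54, and S100a10 at -0.33, while the activator genes Plau and Plat were below the floor on both arrays. Of 6 proprotein convertases, which cut the precursors of many ADAMs and membrane MMPs, 3 were expressed and 1, Pcsk4, was at least 2-fold lower (-1.13), with a median of -0.17. Furin was at -0.17 and Pcsk7 at -0.14. Matrix proteins that MMPs and ADAMTSs digest were largely below the floor, with 3 of 19 expressed and 0 past 2-fold. The laminin chain Lamc1 (-0.37) and the proteoglycan Hspg2 (-0.26) were on both arrays, with a median of -0.32. Fibronectin, Fn1, reached the floor in KO only (66.9 in KO, 66.5 in WT).

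Cell type markers were read in the same way, and several lists also differed between the 2 arrays. The shares to set beside each marker list are those over all genes. These were 61.9% expressed and, of genes on both arrays, 7.15% higher and 4.45% lower in KO by 2-fold or more. Of 13 macrophage and monocyte markers 11 were expressed, 9 of them on both arrays, of which 6 were at least 2-fold higher in KO and 0 lower. The summed signal of the 13 was 12082.2 in KO and 1875.5 in WT, a ratio of 6.44. Among them Chil3 (3.84), Lyz2 (3.45), Lyz1 (3.39) and Pf4 (3.32) each differed by more than Mmp12 did, although Lyz1 and Lyz2 are near-identical genes whose probes may share signal. Lyz1 (4560.9) and Lyz2 (2796.2) gave most of the summed KO signal, so the ratio rests largely on them. Arg1 was at 3.25, but other markers differed less. Csf1r was at 1.12, Cd68 at 0.97 and Cd14 at 0.41, with bounds of 0.23 for Mrc1 and 0.19 for Fcgr1. Adgre1, the macrophage surface marker F4/80, read 200.5 in KO and 135.5 in WT (0.67), and Itgam and Marco were below the floor on both arrays. The part of these markers in the Mmp12, Mmp13 and Mmp14 differences was not tested. In bulk samples, fewer cells of a type and less RNA per cell cannot be told apart.

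Neutrophil markers had 3 of 9 genes expressed, with a summed signal of 553.3 in KO and 365.6 in WT. S100a9, Camp, Ltf, Mpo, Elane and Cxcr2 were below the floor on both arrays, S100a8 read 102.3 in KO and 32.3 in WT, Ngp 66.8 in KO and 64.6 in WT, and Il1b 239.7 in KO and 126.9 in WT (1.02). Their part in the Mmp8 difference was not tested.

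Lymphocyte markers differed as well. T cell markers were lower in KO in 7 of 7 genes, 3 of them at least 2-fold, with a summed signal of 44945.8 in KO and 82105.3 in WT. The 3 were Cd4 (-1.59), Cd5 (-1.41) and Cd28 (-1.03), and Cd3e was at -0.77. B cell markers had 8 of 9 expressed and 3 at least 2-fold higher (summed signal 27661.2 in KO, 15856.2 in WT), led by Cd79b (1.28), with Blk at 1.08 and Cr2 at 1.06. Plasma cell markers had 8 of 8 expressed, 5 at least 2-fold higher and 1, Tnfrsf17, by its bound (98859.3 in KO, 44559.2 in WT), led by Sdc1 (3.70), with Derl3 at 2.31, Irf4 at 2.14 and a bound of 1.81 for Tnfrsf17. Their part in the Timp2, Adamts10 and Adamts6 differences was not tested.

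The remaining markers were mostly below the floor. Stroma and endothelium markers had 2 of 10 expressed (630.0 in KO, 925.8 in WT), namely Pecam1 (-0.92) and Kdr (a bound of 0.16), and the fibroblast genes Col1a1, Col1a2, Col3a1, Pdgfra, Pdgfrb, Lum and Dcn were below the floor on both arrays, as was the endothelial Cdh5. Dendritic cell markers had 2 of 6 expressed (308.6 in KO, 266.7 in WT), Flt3 (a bound of 0.42) and Itgax (0.06). Platelet markers had 2 of 5 expressed (1150.7 in KO, 384.6 in WT), Pf4 (3.32), which is also on the macrophage list, and Itga2b (-0.32). Testis germ cell markers had 2 of 6 expressed (265.6 in KO, 291.2 in WT), Tnp2 (0.16) and Zpbp (-0.16).

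**Figure D4:**
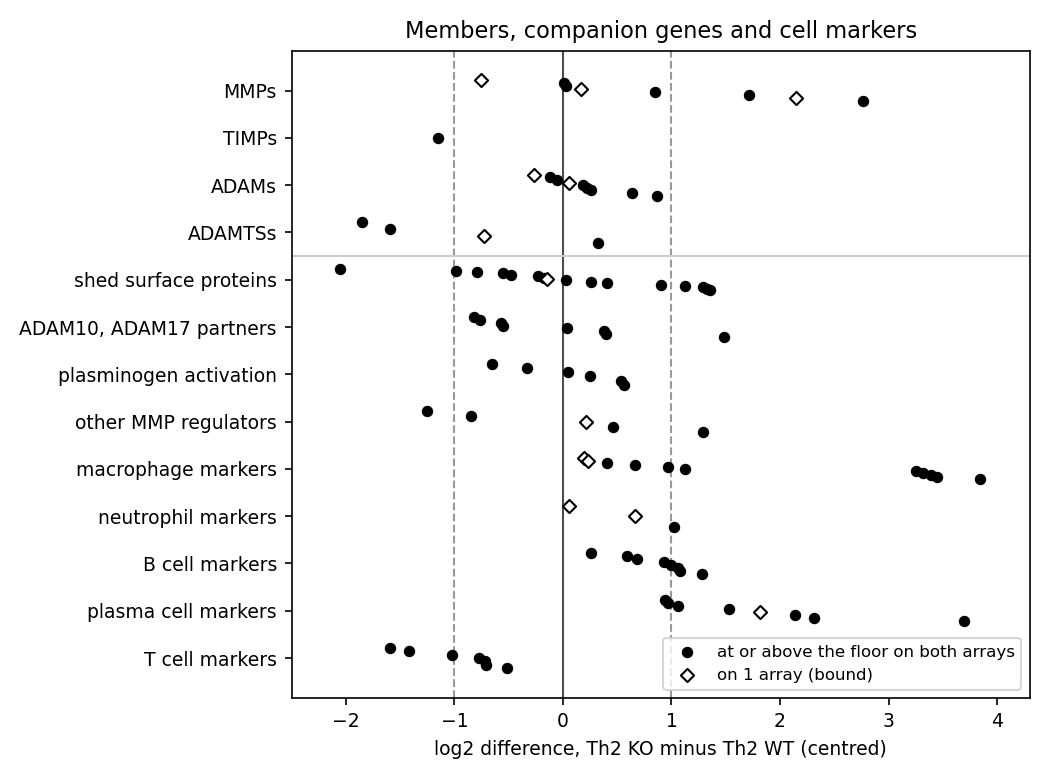
Log2 difference (KO minus WT, centred) of the expressed members by family, above the grey line, and of the expressed genes of 4 companion lists and 5 marker lists, below it, with filled circles for genes on both arrays, open diamonds for bounds, dashed lines at 2-fold and Ecm1 left out. Macrophage markers reach 3.84, Mmp12 stands at 2.77, and all 7 T cell markers lie below 0.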

How the data were processed

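Per the labels' protocols, biotin-labelled cRNA was made from 3 µg of total RNA by the Affymetrix method. The deposited values are linear intensity values, 1 per probe set and array. The sources used here do not name the summarisation software or a genome build. The mean after trimming 2% from each end of the non-control probe sets was 496.9 in KO and 497.0 in WT, so each array appears globally scaled, and the 75th percentiles were 423.4 and 456.2, so the arrays were not quantile normalized. No detection calls were used. Having 1 array a group limits the precision.

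Gene symbols came from the platform annotation. Of 45101 probe sets, 34945 had 1 symbol, 932 several and 9160 none, and 64 control probe sets were left out. All 65 member symbols matched RefSeq, and 15 further RefSeq genes that match the same symbols were not analysed here. Signals were floored, taken to log2 and centred as given above, in Python 3.11.15 with pandas 2.3.3, and the procedure was tested on simulated data. The arrays correlated at r = 0.94 across 20834 probe sets. Companion and marker lists, like the members, were chosen with earlier results of these data known. Every expressed member is named, as are members within 1.5-fold under the floor and up to 4 genes of a list with the largest difference. Rhbdf2, Bsg, Adgre1, Arg1, Csf1r, Cd68, Cd14, Mrc1, Fcgr1, other genes below the floor and the genes of the label checks were named outside that rule, after their values were seen. Alternatives were no centring, quantile normalization, loess (span 0.3), no floor, a floor at the 70th percentile, the mean over probe sets, and leaving out _x_at and _s_at probe sets.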

Additional observations from a re-analysis of the deposited data

Results flagged for a closer look

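Probe sets that the annotation assigns to several genes were used for no member, and 4 of the 5 that name an ADAM reached the floor on at least 1 array. They are given because they hold signal that enters no comparison above. Of the 4 probe sets shared by Adam1a and Mapkapk5, 3 did so, and they did not run alike. They read 99.6 in KO and 60.8 in WT, 120 in KO and 95.9 in WT, and 42.5 in KO and 109.6 in WT. Mapkapk5 encodes a stress-activated kinase, and the signal of either gene cannot be told apart in them. The probe set shared by Adam6a and Adam6b, near-identical genes, read 67.5 in KO, just over the floor, and 4.7 in WT, while the probe sets of Adam6a and Adam6b alone were below the floor on both arrays.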

How the results depend on the processing

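No paired analysis was possible because only 1 array was hybridised per group, and for the same reason no array could be left out. The count of expressed members was 11 with the floor at the 70th percentile and 16 with probe sets averaged, against 22. Averaging took Adam28, Adam33, Adamts4, Adamts16, Mmp14 and Mmp24 below the floor on both arrays. The 5 members past 2-fold on both arrays became 1 at the higher floor (0 higher and 1 lower, Timp2), 2 with probe sets averaged (2 higher, 0 lower) and 35 with no floor (22 higher, 13 lower), where signals below the floor enter as they are. They stayed at 2 higher and 3 lower with no centring, quantile normalization, loess and without _x_at and _s_at probe sets. Of all genes on both arrays, 5.65% were higher and 3.87% lower by 2-fold or more at the higher floor. These shares were 6.91% and 4.41% with probe sets averaged, and 15.3% and 12.4% with no floor. The members on both arrays numbered 7, 11 and 65 in these settings, in that order. Where the member counts stayed, the all-gene shares ran from 5.79% to 7.29% higher and from 4.58% to 6.02% lower. At the higher floor Mmp13 was still above the floor in KO only, and its lower bound of -0.041 leaves the size of the difference undetermined. Of 137 member values over the alternatives, 125 moved by less than the technical SD, and Mmp12 was past 2-fold in 7 of 7. Much of this follows from the settings themselves. Averaging cannot change a gene with a single probe set, such as Mmp12, and dropping the centring shifts values by only 0.10. Members that fell below the floor in a setting gave no value there and are not among the 137. Among all genes measured on both arrays, 61.6% of those past 2-fold were higher in KO after centring, against 49.0% without it.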

Other observations

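Genes related to the ADAMTS family but without a protease domain, and the short ADAM-like gene Adamdec1, carry other symbols and were no members. Adamtsl4, an ADAMTS-like protein known for its role in microfibrils of the human eye, read 1907.1 in KO and 4495.2 in WT, a log2 difference of -1.13. It was chosen for mention once its values were known, and it has a single probe set. Adamtsl3 read 266.0 in KO and 329.2 in WT (-0.20), and Adamtsl5 read 89.7 in KO and 40.6 in WT, below the floor, a bound of 0.48. Adamtsl1, Adamtsl2 and Adamdec1 were below the floor on both arrays.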
